A study of Mus musculus with 16 samples.

Results

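The KLF (Krüppel-like factor) genes described here are 10 zinc finger transcription factors, Klf2, Klf3, Klf4, Klf5, Klf6, Klf9, Klf10, Klf11, Klf13 and Klf15. They were taken by gene symbol from the 54532 genes of the deposited expression table, and this choice was made with earlier results of these data known. All 10 were found, and all carried the zf-C2H2 label in the transcription factor column of that table, as did 576 genes in all. RNA was sequenced from mouse aortas stripped of the adventitia, the outer layer of the vessel wall. Both groups came from male Apoe-/- mice of strain C57BL/6j, 8 to 12 weeks old, which lack apolipoprotein E and so carry high plasma cholesterol. The 8 Saline libraries came from mice infused with 0.9% sodium chloride and the 8 Ang II libraries from mice infused with angiotensin II, a hormone that constricts arteries, at 1000 ng per kg per min. Infusion was by osmotic pump and lasted 7 days in both groups. The library names begin with WT although the treatment text gives the Apoe-/- genotype. Whether each library came from a separate mouse is not said, so the tests measure the spread between libraries.

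KLF proteins bind GC-rich and CACCC-type sites in promoters through zinc fingers at the end of the protein, and their other parts recruit activators or repressors. Klf2 and Klf4 are known for their induction by laminar blood flow in endothelium, Klf4 and Klf5 for their part in the switching of smooth muscle cells away from the contractile state, and Klf15 for its control of glucose and amino acid metabolism in muscle and liver. Klf3 is a repressor that binds CtBP, while Klf9, Klf10, Klf11 and Klf13 can recruit the Sin3 repressor complex. Klf10 and Klf11 were first described as early genes of TGF-beta signalling.

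Levels are FPKM, reads corrected for transcript length and for library size. For most values the length that gave whole reads was the mean over a gene's annotated transcripts. For Klf3 it was 1879 bases, while its exons cover 11243 bases. Comparisons of levels between genes are therefore approximate. Library totals ran from 14606864 to 17590088 reads with saline and from 15779125 to 19988730 reads with Ang II. Each value of a tested KLF gene rested on 162 to 9124 reads. Saline 2, Saline 7 and Saline 8 stood apart on the first principal component, and Saline 7 and Saline 8 had 19904 and 18601 genes above 0 against 20117 to 22138 in the other 14 libraries. Smooth muscle markers summed to 8593 to 14854 FPKM with saline and 6055 to 10437 with Ang II, and endothelial markers to 690 to 1702 and 261 to 1505 FPKM. Of these marker lists, 2 of 6 tested smooth muscle genes and 3 of 10 endothelial genes fell, against 24.9% of all tested genes. Of the endothelial genes that fell, Egfl7 and Cldn5 were called in all 27 alternatives and Pecam1 in 16. The endothelial gene Erg rose (in 19 of 27 alternatives), where 9.54% of all tested genes rose. In such bulk samples fewer cells of a type and less RNA per cell cannot be told apart.

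Klf15 and Klf13 fell with Ang II, and no other KLF gene passed the test in either direction. Klf15 was 3.44-fold lower and Klf13 was 1.53-fold lower, each with every Ang II library below every saline library. Of the 10 genes, 9 had a mean of at least 0.5 FPKM and were tested with limma on log2(FPKM + 1), and Klf5 was too low. The call was a Benjamini-Hochberg adjusted p under 0.05 over 15007 genes. With 2 of 9 called lower, the share was 22.2%, close to the 24.9% of all tested genes called lower. None of the 9 was called higher, against 9.54% of all tested genes (34.5% were called in either direction). At an unadjusted p under 0.05, 1 KLF gene was higher (Klf6) and 2 were lower, and a Wilcoxon rank-sum test and limma voom on recovered reads also called 0 higher. Among 420 tested zf-C2H2 genes 2.62% were called higher and 20.5% lower. Groups that did not overlap were seen, with Ang II lower, in 2 of the 9 KLF genes, in 5.62% of all tested genes and in 4.76% of tested zf-C2H2 genes. With Ang II higher they were seen in 0 of the 9 and in 2.74% of all tested genes. The median log2 fold change was 0.14 over the 9 KLF genes and -0.12 over all tested genes, with 5 KLF genes above 0 and 4 below. Scaling by median ratios moved the median of all genes up by 0.12, and all fold changes below can be read against that shift.

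**Figure D1:**
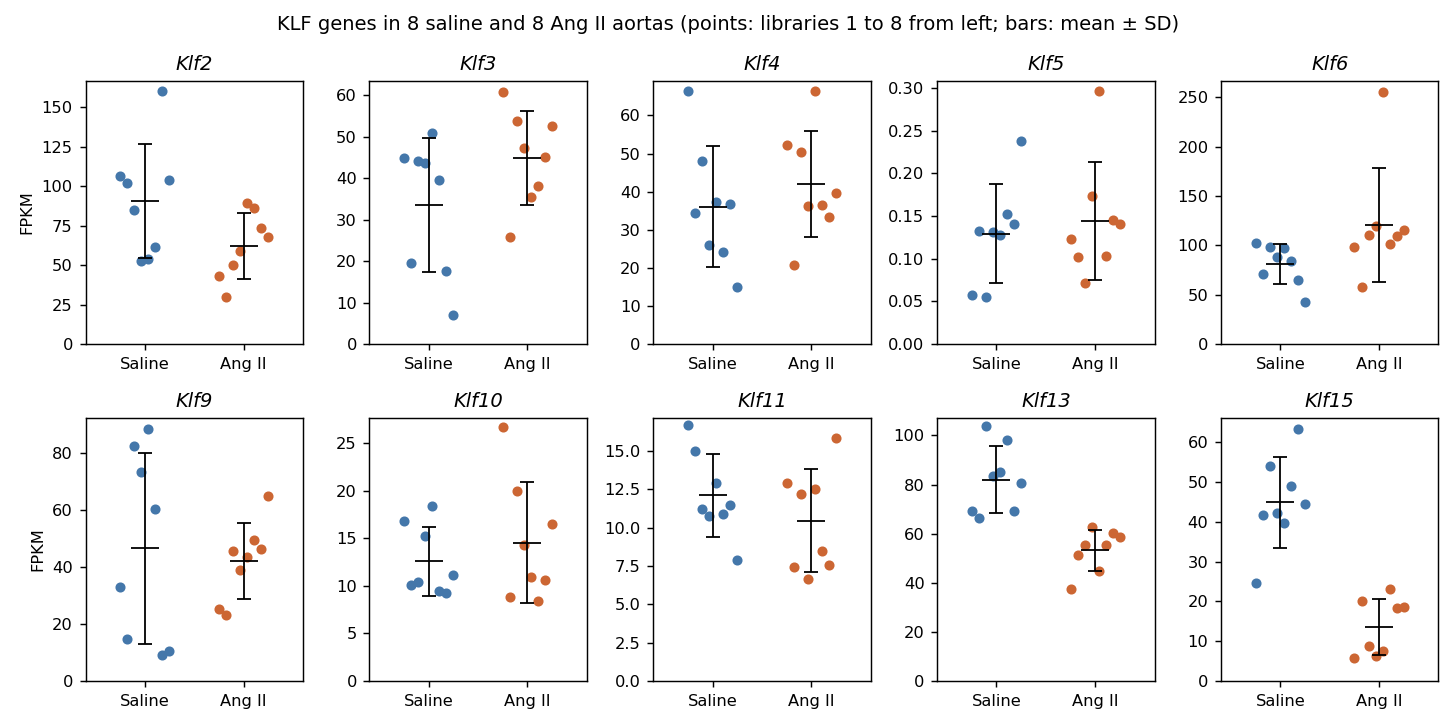
FPKM of the 10 KLF genes (vertical axes, each from 0) in 8 saline and 8 Ang II libraries. Points are libraries and bars are the mean ± SD. The groups are apart for Klf13 (66.5 to 103.9 against 37.4 to 62.5) and Klf15 (24.5 to 63.3 against 5.81 to 23.2) and overlap for the other genes.

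**Figure D2:**
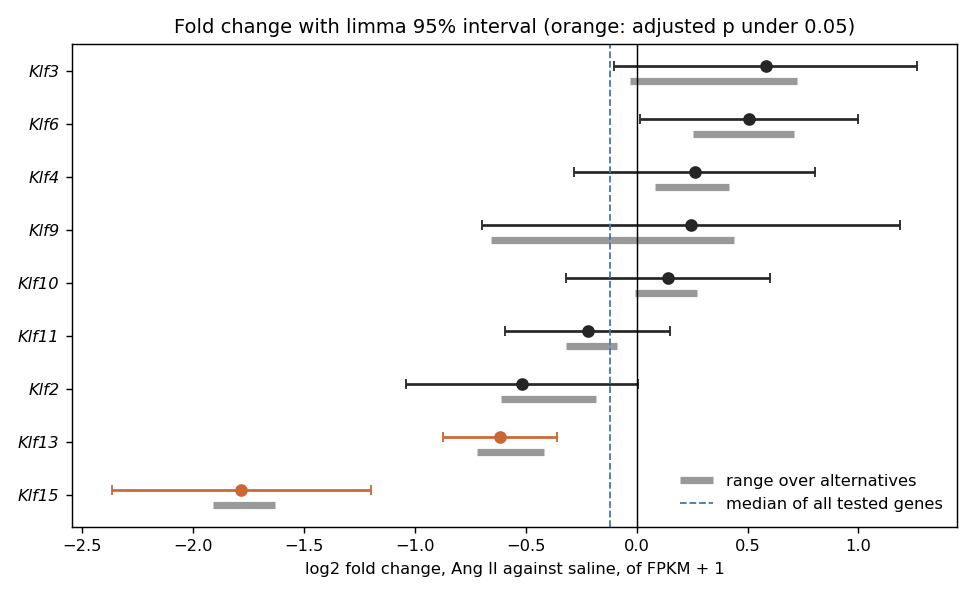
Log2 fold change of each tested KLF gene, Ang II against saline, on the log2(FPKM + 1) scale, with the limma 95% interval and, as grey bars, the range over the alternative settings. The dashed line is the median of all tested genes, -0.12. The intervals of Klf13 and Klf15 lie below both lines, and that of Klf6 runs from 0.017 to 1.00.

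Klf15 (ENSMUSG00000030087, chr6:90462576-90475238, plus strand, GRCm38) is a factor that in muscle and liver promotes amino acid breakdown and the glucose transporter gene Slc2a4. Its level with saline was 24.5 FPKM at the lowest, 43.4 at the median and 63.3 at the highest. With Ang II it was 5.81, 13.6 and 23.2 FPKM. Every Ang II library was below the lowest saline library, and the Ang II libraries themselves lay in a low and a higher set with no value between 8.75 and 18.4 FPKM. Ang II 1, 4, 5 and 3 had 5.81, 6.28, 7.45 and 8.75 FPKM, and Ang II 7, 8, 2 and 6 had 18.4, 18.6, 20.0 and 23.2 FPKM. The means were 44.9 ± 11.3 and 13.6 ± 7.13 FPKM (SD, n = 8 per group). The log2 fold change was -1.78 (SE 0.28, 95% interval -2.37 to -1.20, limma adjusted p = 0.000145), or -1.66 relative to the median of all genes. Only 48 tested genes, 0.32%, had a fold change as low or lower. The call was kept in 27 of 27 alternatives, with log2 fold changes from -1.91 to -1.63 and adjusted p from 3.96e-05 to 0.00189.

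The promoter of Klf15 is shown because it belongs to the KLF gene with the largest fold change and because it holds the E-box, the letters CACGTG that clock proteins and other bHLH proteins can bind, 3 times. The sequence is from RefSeq (GRCm38.p6, chr6:90462326-90462625, plus strand, 250 bases before to 50 after the start), with E-boxes, a GC box (GGGCGG) and a CCAAT box in capitals.
Klf15: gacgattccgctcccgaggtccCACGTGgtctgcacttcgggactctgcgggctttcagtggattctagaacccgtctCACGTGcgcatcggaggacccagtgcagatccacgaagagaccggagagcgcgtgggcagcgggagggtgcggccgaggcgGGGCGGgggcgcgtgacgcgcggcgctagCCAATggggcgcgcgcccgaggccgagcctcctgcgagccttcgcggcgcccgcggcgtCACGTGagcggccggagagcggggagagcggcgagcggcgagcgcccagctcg
CACGTG, searched on both strands, was found in 7.15% of 32851 promoter windows of this length, and 29 of them (0.0883%) held it 3 times or more. A match of letters is a description and not a binding site. A glucocorticoid response element, searched as GNACA, 3 bases of any kind and TGTNC (in 0.475% of windows), and the D-box letters TTATGNAA (in 3.38%) were not in this window.

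Genes known to lie under Klf15 were also read, from a list chosen with earlier results of these data known. Of the 6 genes, 5 were tested. Of those, 4 fell and 0 rose, against 24.9% and 9.54% of all tested genes, with a median log2 fold change of -0.87. Slc2a4, which encodes the insulin-responsive glucose transporter GLUT4, ran from 30.9 to 49.8 FPKM with saline and from 9.23 to 22.3 with Ang II. All 8 Ang II libraries were below every saline library. Its mean fell from 40.1 ± 6.87 to 12.8 ± 4.17 FPKM (SD, n = 8; log2 fold change -1.60, SE 0.15, limma adjusted p = 1.12e-06). Prodh, whose enzyme starts proline breakdown, fell from 23.3 ± 19.7 to 5.72 ± 2.07 FPKM (log2 fold change -1.61, limma adjusted p = 0.00101), with Saline 8 highest at 69.4. Because every gene of this list is given, some lie outside the rule for named genes. Bcat2, the mitochondrial branched-chain aminotransferase, fell by 0.87 on the log2 scale (limma adjusted p = 0.0135), and Acss2, an acetyl-CoA synthetase, fell by 0.60 (limma adjusted p = 0.00294). Gpt, an alanine aminotransferase, had 4.16 ± 2.47 and 2.50 ± 0.837 FPKM (log2 fold change -0.47, limma adjusted p = 0.121). Kcnip2, a potassium channel subunit, had a mean under 0.5 FPKM and was not tested. The counts of 4 lower and 0 higher were the same after median ratio scaling and without Saline 7 and Saline 8.

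**Figure D3:**
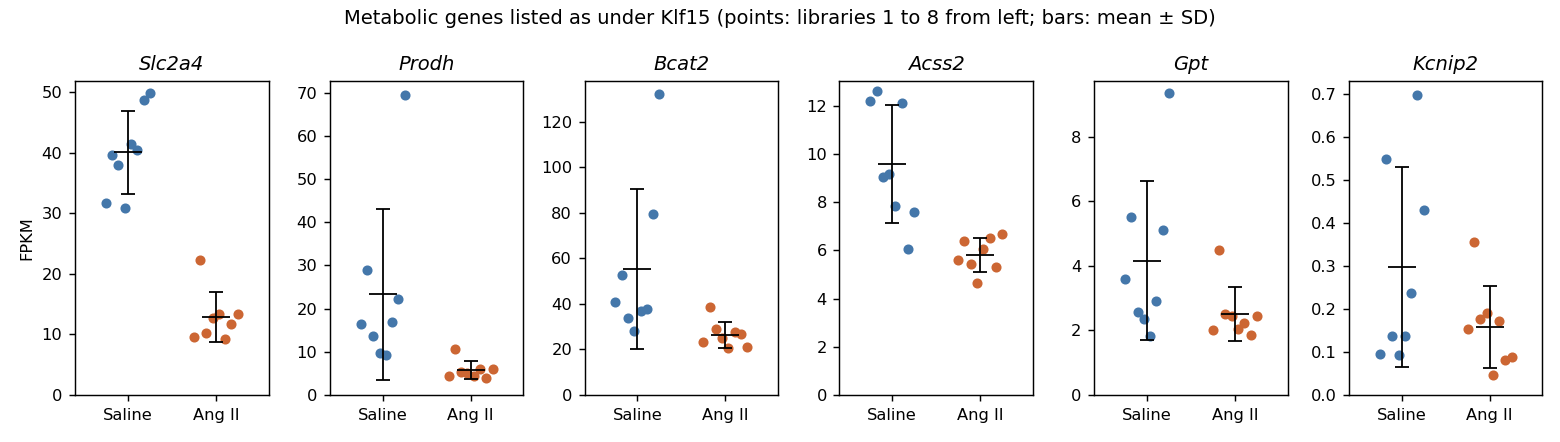
FPKM of 6 genes known to lie under Klf15 (vertical axes, each from 0) in 8 saline and 8 Ang II libraries, with points for libraries and bars for the mean ± SD. The groups do not overlap for Slc2a4 (30.9 to 49.8 against 9.23 to 22.3 FPKM). For Bcat2 and Prodh the highest points are Saline 8, at 132 and 69.4 FPKM.

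Klf15, Slc2a4 and Bcat2 are also expressed in fat. The summed FPKM of 8 adipocyte markers ran from 13.7 to 276 with saline and from 6.49 to 122 with Ang II. Of the 7 that were tested, 1 fell (Fabp4, a fatty acid binding protein that endothelium also makes) and 0 rose. Of all tested genes 24.9% fell and 9.54% rose. With the replicate number as a block, 3 of the markers were called lower. By median the 8 markers summed to 93.1 FPKM in the saline group and to 21.7 FPKM in the Ang II group. The median log2 fold change of the tested markers was -1.18. Within the saline group the markers were highest in Saline 8 (276 FPKM, Klf15 at 44.4) and lowest in Saline 5 (13.7 FPKM, Klf15 at 39.7). Within the Ang II group they were highest in Ang II 8 (122 FPKM, Klf15 at 18.6) and lowest in Ang II 4 (6.49 FPKM, Klf15 at 6.28). Ang II 1 had 67.9 FPKM with the lowest Klf15, 5.81, and Ang II 7 had 7.29 FPKM with Klf15 at 18.4. The marker sum and Klf15 thus had no common order there. Adipocyte markers were thus lower by median in the group where Klf15, Slc2a4 and Bcat2 fell, and their part in these results was not tested. Macrophage markers summed to 12.9 to 542 FPKM with saline and 47.5 to 581 with Ang II. Of 7 tested, 3 rose, against 9.54% of all tested genes, and of these Adgre1 and Csf1r did so in all 27 alternatives. With the replicate number as a block, all 7 were called higher. In both groups libraries 1, 2 and 3 had the highest sums, 542, 229 and 68.1 FPKM with saline and 581, 298 and 267 with Ang II. Within the saline group the sum was highest in Saline 1 (542 FPKM), which had the lowest Klf15, 24.5 FPKM, and lowest in Saline 8 (12.9 FPKM), with Klf15 at 44.4. Within the Ang II group it was highest in Ang II 1 (581 FPKM), which had the lowest Klf15, 5.81 FPKM, and lowest in Ang II 5 (47.5 FPKM), with Klf15 at 7.45. Ang II 2 and Ang II 6, with sums of 298 and 225 FPKM, had the highest Klf15 of that group, 20.0 and 23.2 FPKM, so the 2 measures had no common order there. The part of macrophage content in the Klf15 result was not tested.

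Klf13 (ENSMUSG00000052040, chr7:63886351-63938915, minus strand, GRCm38), known as an activator of the chemokine gene Ccl5 in T cells and as a Sin3-binding repressor elsewhere, was among the 3 most abundant KLF genes. With saline it stood at 66.5, 82.0 and 103.9 FPKM (lowest, median and highest). With Ang II it stood at 37.4, 55.3 and 62.5 FPKM. The groups did not overlap, with a gap of a few FPKM between Ang II 4, at 62.5, and Saline 2, at 66.5. The means were 82.0 ± 13.7 and 53.2 ± 8.45 FPKM (SD, n = 8 per group; log2 fold change -0.62, SE 0.12, 95% interval -0.87 to -0.36, limma adjusted p = 0.00110). Relative to the median of all genes the log2 fold change was -0.50. A fold change this low or lower was found in 13.6% of tested genes, so the size is common in these data. The call was kept in 27 of 27 alternatives (log2 fold change -0.72 to -0.42, adjusted p from 6.07e-05 to 0.0198). T cell markers were low in all libraries, summing to 0.327 to 5.52 FPKM with saline and 0.480 to 2.54 with Ang II.

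The Klf13 promoter is printed beside that of Klf15 because these were the genes called. It comes from RefSeq (GRCm38.p6, chr7:63938866-63939165, minus strand), with GC boxes and CCAAT boxes of either strand in capitals.
Klf13: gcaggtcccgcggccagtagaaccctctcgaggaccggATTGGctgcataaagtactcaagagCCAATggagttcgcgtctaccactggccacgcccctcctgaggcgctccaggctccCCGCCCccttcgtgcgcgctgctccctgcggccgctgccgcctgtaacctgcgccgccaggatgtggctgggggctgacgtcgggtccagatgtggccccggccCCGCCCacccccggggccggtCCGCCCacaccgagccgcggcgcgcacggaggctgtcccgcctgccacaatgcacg
This window held no E-box. The GC box was found in 7 of the 8 KLF promoters in RefSeq's table against 35.7% of all windows, and CCAAT in 5 of 8 against 37.4%. The 8 promoters had 63.0% to 77.7% G and C bases and 23 to 47 CpG pairs, where the medians of all windows were 52.7% and 7. TATAAA was in none of the 8 and in 13.6% of all windows, and CACGTG was also in the windows of Klf4, Klf6 and Klf11.

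Klf3 and Klf9 varied more between saline libraries than between groups. Klf9, which thyroid hormone and glucocorticoids induce, had 9.19, 46.6 and 88.2 FPKM with saline (lowest, median and highest) and 23.3, 44.3 and 64.7 FPKM with Ang II. Saline 7, 8, 2 and 1 were low, at 9.19, 10.3, 14.9 and 32.9 FPKM, and Saline 6, 4, 3 and 5 were high, at 60.3, 73.0, 82.3 and 88.2 FPKM. The Ang II libraries lay inside that span. The log2 fold change was 0.24 (SE 0.45, 95% interval -0.70 to 1.19, limma adjusted p = 0.698). It ran from -0.66 to 0.44 over the alternatives and turned negative with sample weights, without Saline 7, without Saline 7 and 8 and without Saline 2, 7 and 8. Klf3 had 7.15, 41.7 and 51.0 FPKM with saline and 25.9, 46.2 and 60.7 FPKM with Ang II. Its low saline libraries were again Saline 8, 7 and 2, at 7.15, 17.7 and 19.6 FPKM. The log2 fold change was 0.58 (SE 0.32, 95% interval -0.10 to 1.26, limma adjusted p = 0.174), and -0.03 without those libraries. Of the exon bases of Klf3, 3.59% overlap the gene model Gm20033.

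Proteins that KLF factors recruit were described through a cofactor list of 11 genes, which also holds the ubiquitin ligase genes Wwp1 and Fbxw7. Of the 11, 5 fell and 0 rose, against 24.9% and 9.54% of all tested genes. The median log2 fold change was -0.23. Crebbp, a histone acetyltransferase that acts as coactivator, fell by 0.40 on the log2 scale (limma adjusted p = 0.00662). Sin3b, a scaffold of the Sin3 repressor complex, fell by 0.39 (limma adjusted p = 0.0130). Fbxw7, named because it is not a recruited cofactor, was 1 of the 5 (log2 fold change -0.57, limma adjusted p = 0.0201). After median ratio scaling 0 of the 11 were called lower and 1 higher, so these calls rest on the scaling. The 1 higher was Wwp1 (limma adjusted p = 0.0471).

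Klf2 and Klf4, the flow-induced factors, did not pass the test. Klf2, which in endothelium raises Nos3 and thrombomodulin, had 52.7, 93.4 and 160.0 FPKM with saline and 30.0, 63.3 and 89.4 FPKM with Ang II. In 3 Ang II libraries Klf2 was under the lowest saline value, and the rest overlapped the saline group. The means were 90.7 ± 35.9 and 62.3 ± 20.8 FPKM (SD, n = 8 per group; log2 fold change -0.52, SE 0.25, 95% interval -1.04 to 0.0052, limma adjusted p = 0.114). The interval holds both a halving and no change, and no alternative gave a call. Endothelial markers summed to 261 FPKM in Ang II 2, the library with the least Klf2, and to 1505 FPKM in Ang II 5, which had the most Klf2 of its group. With saline the sum was highest in Saline 4, at 1702 FPKM, which had the least Klf2 of its group, 52.7 FPKM, and lowest in Saline 2, at 690 FPKM, with Klf2 at 102 FPKM. The part of endothelial content in the Klf2 values was not tested.

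The Klf2 promoter is shown because it held a match to the MEF2 site, a motif known for its part in the induction of Klf2 by flow. The sequence is from RefSeq (GRCm38.p6, chr8:72318812-72319111, plus strand), with the MEF2 match and GC boxes in capitals.
Klf2: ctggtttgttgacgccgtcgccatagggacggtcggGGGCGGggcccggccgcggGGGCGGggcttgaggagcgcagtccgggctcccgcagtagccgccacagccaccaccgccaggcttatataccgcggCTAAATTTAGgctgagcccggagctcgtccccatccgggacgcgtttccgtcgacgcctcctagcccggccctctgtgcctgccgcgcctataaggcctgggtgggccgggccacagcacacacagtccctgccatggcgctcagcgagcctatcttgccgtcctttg
A MEF2 match was found in 0.557% of all windows and, of the 8 KLF promoters, in that of Klf2 alone. A list of 13 genes pooled those that carry the flow signal to Klf2 and Klf4 with those that restrain it. The first include the kinases MEKK2, MEKK3, MEK5 and ERK5, MEF2 factors and the channel Piezo1, the second the CCM complex and Hdac5. Of the 13, 1 rose and 1 fell, against 9.54% and 24.9% of all tested genes. Such counts give no direction of the signal. Hdac5, a deacetylase that holds MEF2 factors inactive, fell from 201 ± 68.6 to 88.9 ± 11.0 FPKM (SD, n = 8; log2 fold change -1.11, limma adjusted p = 7.38e-05), with all 8 Ang II libraries below every saline library. Piezo1, a mechanically gated ion channel, rose from 9.53 ± 5.94 to 19.0 ± 6.48 FPKM (log2 fold change 1.13, limma adjusted p = 0.0345). The Hdac5 call was kept in 27 of 27 alternatives and the Piezo1 call in 15. Piezo1 was not called without Saline 2, 7 or 8 or without Ang II 3, 4, 5, 6 or 7. Of the list, 4 genes rose after median ratio scaling, and 0 rose and 3 fell without Saline 7 and 8.

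Of 8 endothelial genes known to lie under Klf2 and Klf4, 0 were called in either direction with limma. The list pools genes that these factors induce with genes that they repress, so its counts give no common direction. At an unadjusted p under 0.05, 1 was higher and 1 lower, and the Wilcoxon test called 1 and voom 0. Those were Thbd, which encodes thrombomodulin, and Nos3, the endothelial nitric oxide synthase, named after their values were seen. Thbd had 18.6 ± 8.49 and 28.3 ± 6.10 FPKM (SD, n = 8; log2 fold change 0.72, limma adjusted p = 0.0650). Nos3 had 28.6 ± 6.75 and 19.9 ± 8.95 FPKM (log2 fold change -0.61, limma adjusted p = 0.0643). With limma, 1 of the 8 was called higher without Ang II 2 or Saline 1, 3, 4 or 5. The same count was found with median ratio scaling, quantile normalization or sample weights. In turn 1 was called lower without Ang II 4, 5 or 7, or without Saline 2, 7 and 8 together. With the replicate number as a block, 2 of the 8 were called higher and 1 lower.

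Klf4 had 14.9, 35.6 and 66.5 FPKM with saline and 20.9, 38.1 and 66.3 FPKM with Ang II, and the groups overlapped almost fully. The log2 fold change was 0.26 (SE 0.26, 95% interval -0.28 to 0.81, limma adjusted p = 0.452). Of 8 contractile genes and activators on which Klf4 acts as a repressor, 3 fell and 0 rose, also after median ratio scaling, with a median of -0.32. Of all tested genes 24.9% fell and 9.54% rose, and 14.1% and 14.9% after that scaling. Myh11, a myosin heavy chain of smooth muscle, fell by 0.88 on the log2 scale (limma adjusted p = 0.000181), and Lmod1, an actin nucleator of smooth muscle, fell by 0.57 (limma adjusted p = 0.00349).

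Klf6 and Klf5 are injury-responsive factors of the vessel wall. Klf6 had 42.5, 86.2 and 102 FPKM with saline and 57.7, 110.1 and 256 FPKM with Ang II. In 5 Ang II libraries Klf6 was over the highest saline value, and Ang II 5 was far above the rest. The means were 81.2 ± 20.4 and 121 ± 57.7 FPKM (SD, n = 8 per group; log2 fold change 0.51, SE 0.23, limma adjusted p = 0.0997). Klf6 was called higher in 3 of 27 alternatives, with median ratio scaling (0.65, adjusted p = 0.0397), with quantile normalization (0.71, adjusted p = 0.0342) and without Ang II 2 (0.64, adjusted p = 0.0274). Its direction was the same in all 27, but its size was smaller in others. It was 0.34 without Ang II 5 (limma adjusted p = 0.186) and 0.32 without Saline 7 and 8 (limma adjusted p = 0.286). Without Saline 2, 7 and 8 it was 0.25 (limma adjusted p = 0.431). Klf5, by contrast, was at the floor of detection, with 3 to 16 reads per library. It had 0.0553, 0.132 and 0.238 FPKM with saline and 0.0714, 0.131 and 0.296 FPKM with Ang II, so no difference was detectable at this depth.

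Klf10 and Klf11 were among the less abundant KLF genes and did not pass the test. Klf10 had 9.28, 10.7 and 18.4 FPKM with saline and 8.43, 12.6 and 26.7 FPKM with Ang II (log2 fold change 0.14, SE 0.22, 95% interval -0.32 to 0.60, limma adjusted p = 0.646). Klf11 had 7.92, 11.3 and 16.7 FPKM with saline and 6.66, 10.3 and 15.8 FPKM with Ang II (log2 fold change -0.22, SE 0.18, 95% interval -0.59 to 0.15, limma adjusted p = 0.342). Both intervals exclude a doubling and a halving. In the TGF-beta pathway, which induces both genes, 4 of 11 genes rose and 0 fell, against 9.54% and 24.9% of all tested genes, with a median of 0.45. Tgfb2, a ligand, rose from 45.0 ± 18.3 to 107 ± 25.1 FPKM (SD, n = 8; log2 fold change 1.31, limma adjusted p = 0.000598). After median ratio scaling 6 of the 11 rose, against 14.9% of all tested genes.

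The other KLF genes and the related SP genes were also measured. Of 7 further KLF genes, 4 were tested (Klf7, Klf8, Klf12 and Klf16), and limma, Wilcoxon and voom called 0, with 0 at an unadjusted p under 0.05. Klf1 and Klf14 were under 1 FPKM in every library and Klf17 was listed at 0. Of 9 SP genes, 4 were tested and likewise 0 were called by any of these tests or at an unadjusted p under 0.05. Among the SP genes tested the log2 fold changes ran from -0.13 (Sp4) to 0.35 (Sp3).

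The family total overlapped between the groups, while the shares of Klf6 did not. The summed FPKM of all 17 KLF genes was 337 to 575 with saline (median 465) and 262 to 594 with Ang II (median 433). Klf6 made up 12.6% to 20.1% of it with saline (median 18.1%) and 22.0% to 43.1% with Ang II (median 25.4%), without overlap. Klf15 made up 4.84% to 13.8% with saline and 1.26% to 7.62% with Ang II. These shares were looked at after the levels were seen and were not tested, and a share moves when any other KLF gene moves. Their sizes also depend on the transcript lengths behind FPKM.

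**Figure D4:**
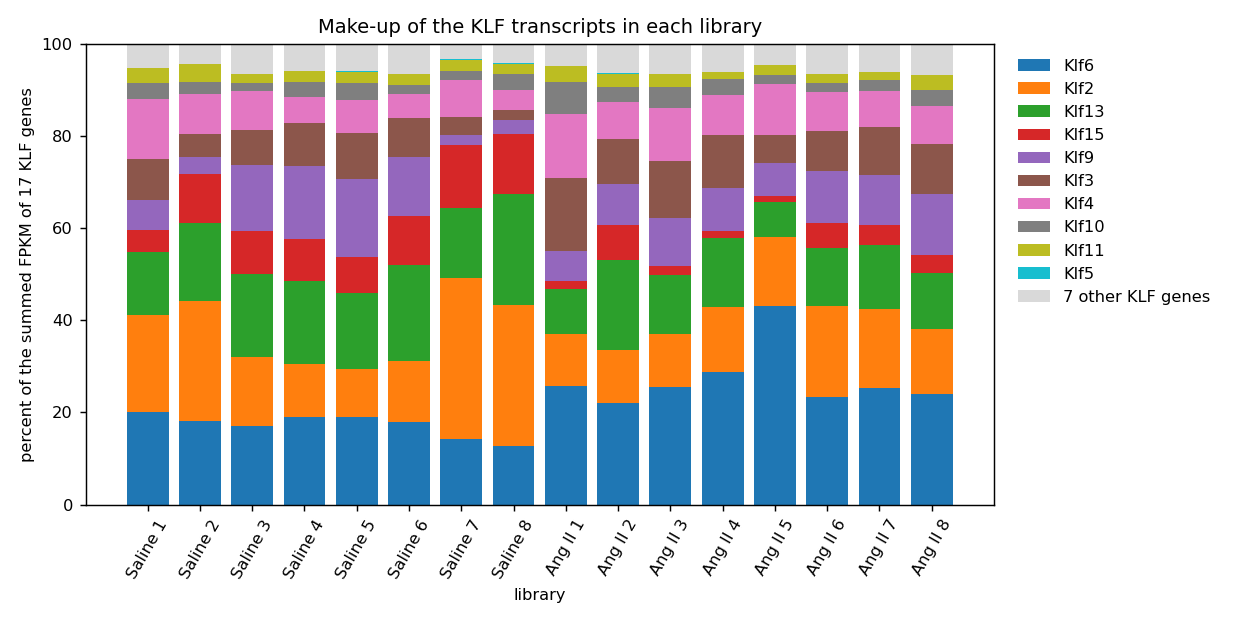
Share of each KLF gene in the summed FPKM of 17 KLF genes, in percent, in each of the 16 libraries. Klf6 takes 12.6% to 20.1% in saline libraries and 22.0% to 43.1% in Ang II libraries, and the Klf15 segment shrinks from a median of 9.94% to 2.93%.

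By median, the order with saline was Klf2, Klf6, Klf13, Klf9, Klf15, Klf3, Klf4, Klf11, Klf10 and Klf5. An order between genes depends on the transcript lengths behind FPKM. Klf2 exceeded Klf6 in 4 of 8 saline libraries, so these neighbours did not differ beyond their spread. The clear steps were from Klf4 down to Klf11, seen in 8 of 8 libraries, and from Klf10 down to Klf5, whose ranges did not overlap. With Ang II the order was Klf6, Klf2, Klf13, Klf3, Klf9, Klf4, Klf15, Klf10, Klf11 and Klf5. Klf6 exceeded Klf2 in 8 of 8 Ang II libraries, and Klf15, in the middle with saline, was below Klf4 in 8 of 8. It stood beside Klf10, which it exceeded in 4 of 8.

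Several of these genes moved together between libraries of the same group. Over the 16 libraries, with group means taken out, Pearson's r was 0.80 for Klf3 and Klf9, 0.76 for Klf4 and Klf6 and 0.71 for Klf4 and Klf11. Without Saline 7 and Saline 8 these were 0.65, 0.69 and 0.64. Within the 8 Ang II libraries alone they were 0.30, 0.82 and 0.66, so Klf3 and Klf9 moved together less there. Klf15 went the other way from Klf10 (r = -0.67, -0.65 without Saline 7 and Saline 8, and -0.66 within the Ang II group). Values of r are a description of 16 libraries that share depth and tissue make-up, and carry no p. Among 13346 genes the one most like Klf15 by this measure was Ak3, a mitochondrial adenylate kinase (r = 0.87), followed by Gm43672 and by Pdk2, a pyruvate dehydrogenase kinase (r = 0.85), which fell by 1.07 on the log2 scale (limma adjusted p = 0.000122). Klf13 was most like Dctn1, a dynactin subunit (r = 0.88). Klf9 was most like Gpc6, a glypican (r = 0.99), and Klf3 most like Capza1, an actin capping subunit (r = 0.98). Klf4 was most like Dnaja1, a heat shock cochaperone (r = 0.89), and Klf6 most like Plekha6 (r = 0.93). Klf2 was most like Gm45667 (r = 0.90) and then Gpr4, a proton-sensing receptor (r = 0.88). Klf10 was most like Cdc45 (r = 0.88) and Klf11 most like Dusp16, a MAP kinase phosphatase (r = 0.86).

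**Figure D5:**
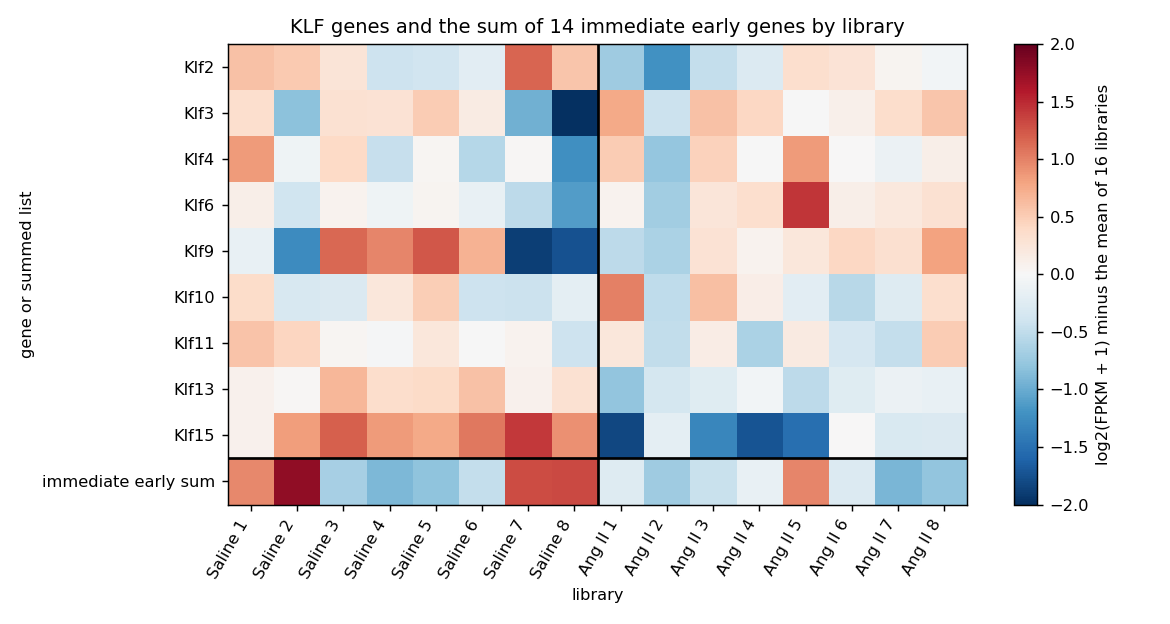
Log2(FPKM + 1) of the KLF genes and of the sum of 14 immediate early genes in each library, minus the mean of the 16 libraries (blue low, red high). Klf15 and Klf13 divide the groups, and Saline 2, 7 and 8 are low for Klf3 and Klf9 and, with Saline 1, high for the immediate early sum.

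Immediate early genes, which rise within minutes of handling or stress, differed strongly between libraries. The sum of 14 of them was 1497, 2629, 1896 and 1918 FPKM in Saline 1, 2, 7 and 8 and 412 to 551 FPKM in the other saline libraries. With Ang II it was 1503 FPKM in Ang II 5 and 407 to 692 FPKM elsewhere. Saline 1, 2, 7 and 8 had the 4 highest values of Klf2 of all libraries, from 102 to 160.0 FPKM, and Saline 2, 7 and 8 had the 3 lowest of Klf9. Ang II 5 had the highest Klf6, 256 FPKM. The part of this response in the KLF values was not tested. Of the 14 genes, 3 fell and 0 rose, no larger a share than the 24.9% of all tested genes that fell, and after median ratio scaling or without Saline 7 and 8 none was called by limma. Zfp36, an RNA-destabilizing protein, fell by 0.89 on the log2 scale (limma adjusted p = 0.0207), and Nr4a1, an orphan nuclear receptor, fell by 1.67 (limma adjusted p = 0.0317). Nr4a1 was not called without Saline 1, 2, 7 or 8 or without Ang II 2, 6, 7 or 8, and Btg2, named because it completes the 3, was called in 9 of 27 alternatives. Klf15 and Klf13 were called without Saline 2, 7 and 8, a setting chosen after seeing the data. That setting kept Saline 1 and Ang II 5, so it does not test the part of this response.

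Klf9 and Klf15 are known to follow the circadian clock and glucocorticoids in several tissues. Of 16 clock and clock output genes, 8 fell and 1 rose, against 24.9% and 9.54% of all tested genes, with a median of -0.63. After median ratio scaling 7 fell and 1 rose. Tef, a PAR bZIP output factor, fell from 470 ± 132 to 235 ± 44.8 FPKM (SD, n = 8; log2 fold change -0.98, limma adjusted p = 0.000194). Cry2, a clock repressor, fell from 45.9 ± 7.45 to 31.2 ± 3.13 FPKM (log2 fold change -0.53, limma adjusted p = 0.000696), with all 8 Ang II libraries below every saline library. The gene that rose was Arntl, the clock activator BMAL1, from 0.336 ± 0.153 to 1.00 ± 0.408 FPKM (log2 fold change 0.57, limma adjusted p = 0.00353), which is named outside the rule because of its low level. The time of day of collection is not given in the labels used here, and its part was not tested. Of 11 glucocorticoid-induced genes and receptors 3 fell and 0 rose, a share near the 24.9% of all tested genes that fell, and after median ratio scaling 0 were called. Mt1, a metallothionein, fell by 0.99 on the log2 scale (limma adjusted p = 0.0230), and Per1, which is also a clock gene, fell by 0.95 (limma adjusted p = 0.0231). Fkbp5, an immunophilin named because it completes the 3, fell by 0.87 (limma adjusted p = 0.0417) and was called in 12 of 27 alternatives. Without Saline 7 and 8, none of Mt1, Per1 and Fkbp5 was called, and 1 other gene of the 11 was called lower, the mineralocorticoid receptor gene Nr3c2, which is named after its values were seen. At an unadjusted p under 0.05 too, 0 genes were higher in the list of genes under Klf15. The same held for the cofactor, contractile, immediate early and glucocorticoid lists, and 0 genes were lower in the TGF-beta list.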

How the data were processed

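The authors deposited gene expression as FPKM for 54532 genes in 16 libraries, with GRCm38 (mm10) named in the submitters' processing notes. The sources used here do not give the aligner, the counter or strand use. RNA was extracted with Trizol and 1.0 ug of it entered a SMARTER mRNA-Seq library kit, per the labels' protocols. Groups and replicate numbers came from sample titles.

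Gene IDs were matched to GENCODE M21 (99.8% found). Dividing FPKM by the value of 1 read at the mean transcript length gave whole reads, within 0.02, for 95.8% to 96.3% of values. 1 read in 1 kilobase was worth 0.0500 to 0.0685 FPKM, and intervals cover no other error than the spread of libraries. No pair of libraries within a group agreed within counting noise (lowest chi-square per degree of freedom 20.0 over 56 pairs).

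The test was limma 3.58.1 in R 4.3.3 on log2(FPKM + 1) with an intensity trend, for genes with a mean of at least 0.5 FPKM, two-sided, with Benjamini-Hochberg adjustment at 0.05. A fold change on this scale understates that of low genes. limma was tested on simulated data. Python 3.11.15 with numpy 2.4.6, pandas 2.3.3 and matplotlib 3.10.9 gave summaries and figures, and bedtools 2.31.1 gave exon overlap. Promoters were taken from RefSeq for 8 of the 10 genes; Klf5 and Klf10 had no entry.

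The named genes were the 10 KLF genes and, from each list, at most 2 called genes per direction, those of smallest adjusted p among genes averaging 1 FPKM or more. For each KLF gene the 3 most correlated genes were also taken, and the text names a selection. A gene that the rule took is not reported here. The members and lists were chosen with earlier results of these data known. The alternatives were a filter at 1 FPKM in place of 0.5 or none at all, a pseudocount of 0.1, median ratio scaling, quantile normalization, sample weights, the replicate number as a block, a Wilcoxon rank-sum test, limma voom on recovered reads and leaving out each library. Leaving out Saline 7 and 8, or Saline 2, 7 and 8, was chosen after seeing the data.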

Additional observations from a re-analysis of the deposited data

Results flagged for a closer look

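In 20 groups of 8 libraries (10 KLF genes in 2 groups), the gap between the most extreme library and the next was compared with the range of the group by Dixon's rule, and 2 gaps were above the 95% critical ratio. Chance alone would give about 1 in 20 groups. Klf6 in Ang II 5 was 256 FPKM, while the other Ang II libraries ran from 57.7 to 119 FPKM. Klf5 in the same library was 0.296 FPKM, with the other Ang II libraries at 0.0714 to 0.173 FPKM, a level of a few reads. Ang II 5 also had the highest immediate early sum of its group, 1503 FPKM. Its part in the Klf6 and Klf5 values was not tested.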

How the results depend on the processing

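Of 27 alternatives, 16 left out a single library. The calls of Klf13 and Klf15 as lower were kept in all 27, and the count of KLF genes lower was 2 in each. The count of KLF genes higher was 0, but 1 under median ratio scaling and 1 under quantile normalization, and 0 to 1 when single libraries were left out, where the call was Klf6 without Ang II 2. All genes called higher numbered 1431, with 2235 under median ratio scaling and 2270 under quantile normalization. All genes called lower numbered 3741, with 2113 and 2374 under these settings. The share of higher against lower calls thus depended on the scaling. With the replicate block 1414 genes were higher and 3531 lower, and the KLF counts stayed at 0 and 2 (adjusted p = 0.00282 for Klf13 and 0.000195 for Klf15). Among the lists the block moved the calls of endothelial genes under Klf2 and Klf4 from 0 to 2 higher and 1 lower. Macrophage markers went from 3 to 7 higher and adipocyte markers from 1 to 3 lower. The cofactor list went from 5 to 3 lower and immediate early genes from 3 to 1 lower. Endothelial markers went from 1 to 2 higher and from 3 to 4 lower. In the main test the replicate numbers were not taken as pairs. The correlation of deviations between libraries of the same number ran from -0.246 to 0.385 and was over 0.1 in 5 of 8 pairs. These values do not decide whether the numbers mark pairs. Of the libraries, 2 saline and 3 Ang II libraries correlated best with their own number. Leaving out Saline 7 and 8 gave 1265 higher and 3988 lower, and leaving out Saline 2, 7 and 8 gave 1200 and 3946. With 8 libraries a group, the spread between saline libraries sets the limit for Klf3 and Klf9, and read depth sets it for Klf5.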
